A study of Mus musculus with 4 samples.

Results

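The subject here is a set of 32 genes that build and maintain epithelial cell contacts: tight junction, adherens junction and desmosome genes, simple keratins, and membrane-anchored proteases with their inhibitors. Members were the rows of the deposited expression table whose gene name was on the list, and all 32 were found among the 22369 genes of the table. RNA was sequenced from OG2MEF cells, mouse embryonic fibroblasts that carry a green fluorescent reporter driven by Oct4, on day 9 of reprogramming. Cultures with the mutant factor were labelled SOX17-V118M (called V118M here, 2 libraries) and the others SOX17 WT (called wild type, 2 libraries). The growth protocol, which all 4 libraries share, lists 2 rounds of retroviral transduction with pMX vectors carrying Sox2 and Klf4, to which OCT4, GFP, SOX17 or SOX17-V118M was added. Cells were then kept in stem cell medium that contained vitamin C and LIF. The protocol does not state which mixture went into which library. V118M is a missense change in the endodermal transcription factor SOX17, at the surface where it meets OCT4 on DNA. The labels do not say whether replicates were separate transductions, so the p-values reflect variation among these 4 samples only, and that variation may be technical. Cultures were profiled in bulk, so fewer epithelial cells and less RNA per cell cannot be told apart.

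Epithelial cells are joined side by side by junctions stacked along the membrane. Tight junctions, made of claudins and occludin tied to ZO scaffold proteins, seal the space between cells. Adherens junctions hold cells together through E-cadherin, and desmosomes anchor keratin filaments. Fibroblasts normally keep these genes low through repressors such as SNAI1 and ZEB1, and factor-driven reprogramming of fibroblasts includes a mesenchymal-to-epithelial transition in which E-cadherin, EPCAM and simple keratins are switched on. The comparison of V118M with wild type therefore asks whether cultures with the mutant factor differed in this epithelial program.

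The values are whole-number scores that were given nearly the same distribution in every library. Library totals lay between 12855482 and 12859613, the median was 76 in each, and 10 genes shared the highest value of 61186 in each. Sequencing depth is therefore unknown, and a gene at or near the top of the scale has a compressed value. V118M replicate 2 stood apart: its values for 12661 well-expressed genes (mean log2 of 5 or more) correlated with the other libraries at a Pearson r of 0.954 to 0.964, against 0.986 to 0.990 among the other 3. Sox17 itself was at 3016 and 2396 in V118M and at 3484 and 2880 in wild type. The 9 fibroblast markers summed to 123403 and 95554 in V118M and to 121101 and 119178 in wild type. Much of that sum was the collagen gene Col3a1, at 61186 and 29496 in V118M and at 61186 in both wild-type libraries, while the fibroblast surface marker Thy1 was at 1822 and 1704 in V118M and at 1694 and 1798 in wild type. Postn, Pdgfra and Lum, 3 of the 9, were higher in V118M with no overlap, against 13.2% of all genes, and 0 were lower with no overlap. Postn was at 1889 and 1744 in V118M and at 1263 and 1098 in wild type (limma adjusted p = 0.951). All 32 epithelial genes passed the filter on low values (2 or more libraries at 1 or above), and none was below 36 in any library.

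**Figure D1:**
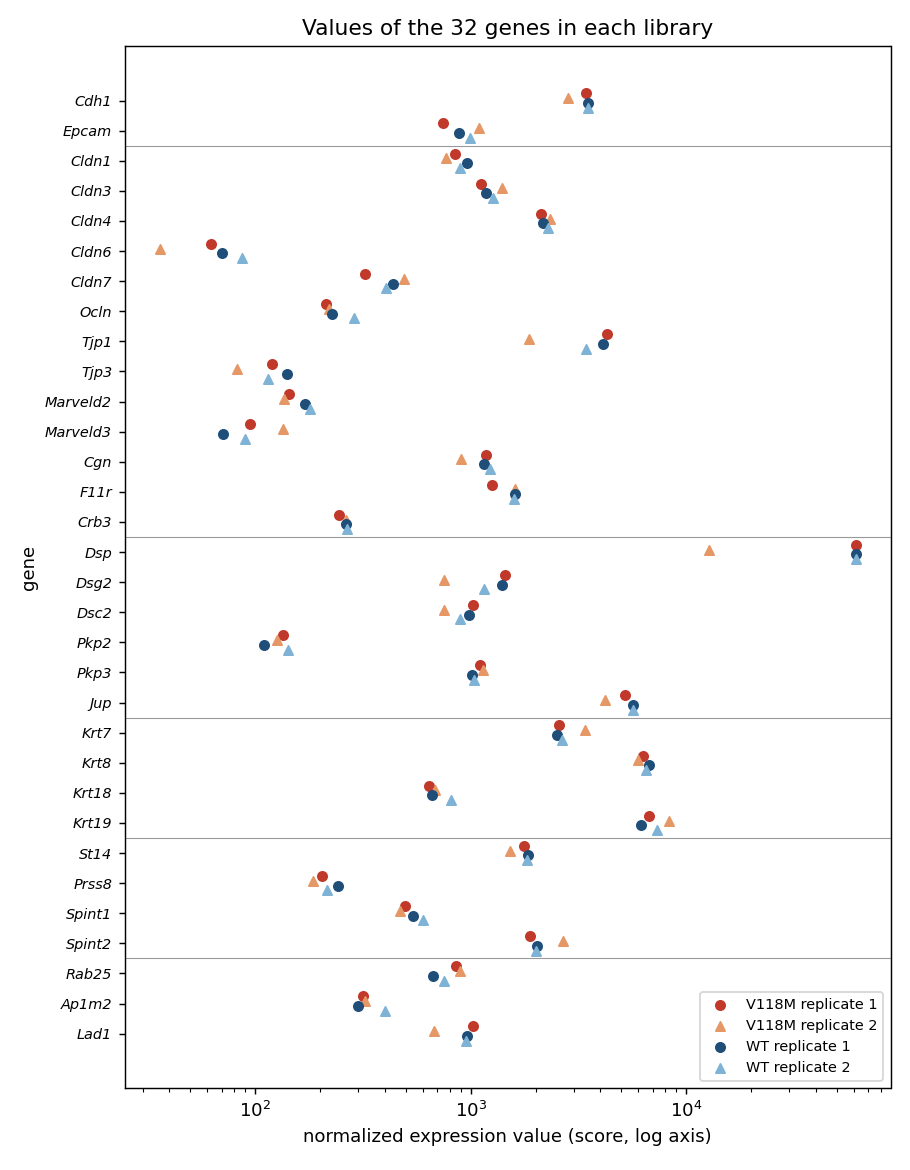
Normalized expression values (score, log axis) of the 32 genes, 1 row per gene in order of their roles, with 1 point per library (V118M red and orange, wild type dark and light blue). The 4 points of most genes lie close together, while Dsp, Tjp1, Dsg2 and Cldn6 show V118M replicate 2 to the left of the others.

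Levels of the epithelial junction genes differed little between V118M and wild-type cultures, and no single gene passed the test. Of the 32 members, 9 had higher and 23 lower means in V118M, the median of their log2 fold changes was -0.15, and 0 had an adjusted p under 0.05 (limma, lowest member adjusted p = 0.951). Over all 19547 genes tested, 48.2% had lower means, the median was 0.00 and 0 genes passed, which is 0% of them (lowest adjusted p = 0.205). At an unadjusted p under 0.05 there were 0 members, against 4.01% of all genes. Leaving out V118M replicate 1 raised that count to 9, when 26.8% of all genes also had such a p, and leaving out V118M replicate 2 raised it to 5, when 12.0% of all genes did. It was 0 without either wild-type library, against 1.16% of all genes without wild-type replicate 1 and 1.42% without wild-type replicate 2. Differences were small: 30 of 32 members (93.8%) had a log2 fold change within 0.5 of 0, against 92% of the well-expressed genes. For 26 of the 32 (81.2%) the 95% interval of the fitted difference lay between -1 and 1 on the log2 scale, so a 2-fold change in either direction was outside the interval for those genes. That share was near the 78.9% of the well-expressed genes, and it was 51.4% of all genes tested.

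Ranges of the 2 groups did not overlap for 14 of the 32 members (43.8%), 11 with both V118M values below both wild-type values and 3 with both above. Among all genes tested 28.0% did not overlap, 14.8% with V118M below and 13.2% with V118M above. Among well-expressed genes the shares were 31.2% in either direction and 16.7% with V118M below, where 34.4% of the members lay. The 11 genes below were Cdh1, Cldn1, Cldn6, Ocln, Marveld2, Crb3, Jup, Krt8, St14, Prss8 and Spint1, and the 3 above were Marveld3, Pkp3 and Rab25. In 8 members the fold change was larger than the gap between either pair of replicates: Cldn1, Marveld2, Marveld3, Pkp3, Krt8, Prss8, Spint1 and Rab25. That is 25% of the members, against 18.2% of all genes tested.

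**Figure D2:**
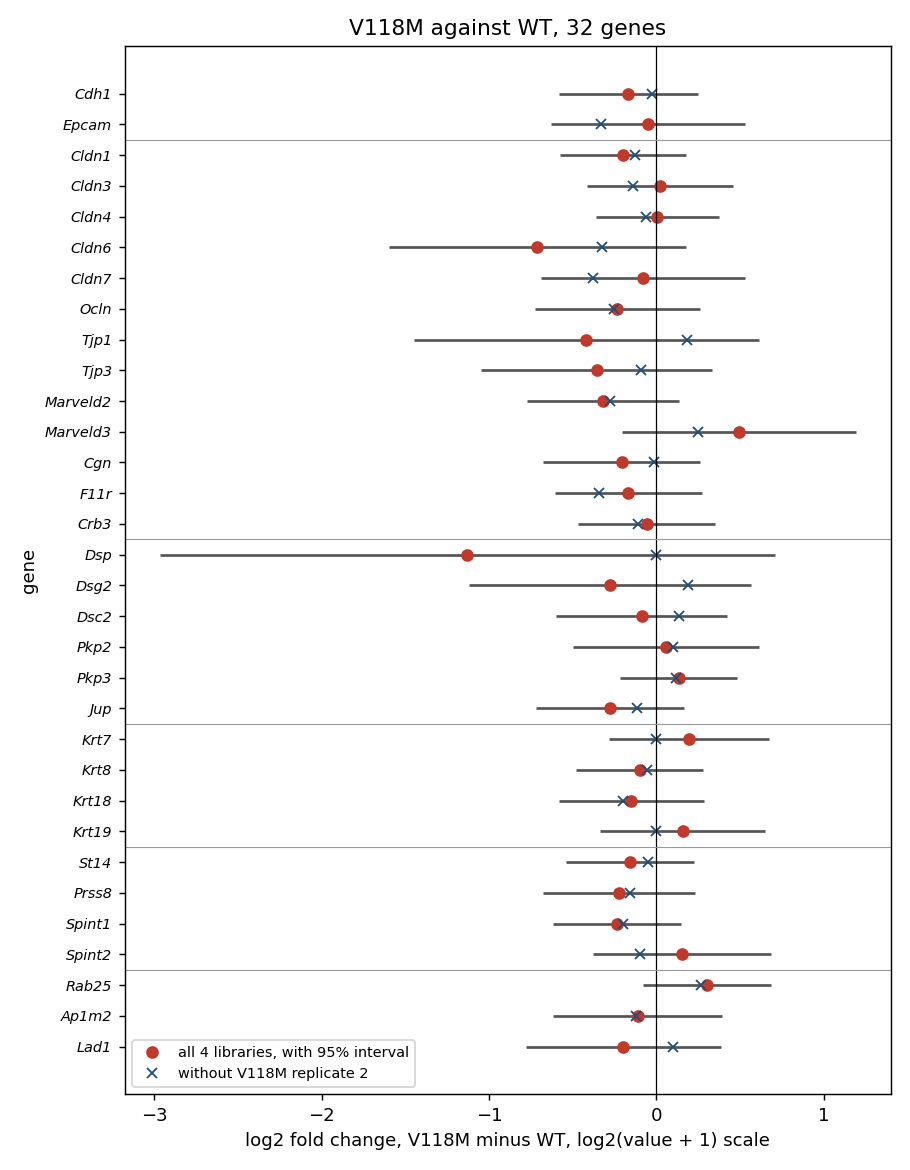
Log2 fold change of each gene, computed from log2(value + 1) as V118M minus wild type, with the 95% interval of the limma fit (red points and grey lines), and the same without V118M replicate 2 (blue crosses). Every interval includes 0, and the widest belongs to Dsp, whose cross lies at 0.

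Replicates differed more within V118M than within wild type. The 2 V118M libraries were farther apart than the 2 wild-type libraries in 25 of 32 members (78.1%), with median log2 gaps of 0.32 in V118M and 0.11 in wild type. The same held for 78.1% of well-expressed genes. The gap went with transcript length. Of the 13 members whose longest coding transcript exceeds 3000 bases, a division chosen after the values were seen, 12 were lower in V118M replicate 2 than the mean of the other 3 libraries, and Krt7 was higher. Of the 19 shorter members 8 were lower and 11 higher. The Spearman correlation between that deviation and length was -0.632 over the 32 members, which share the library, and -0.469 over 16374 tested genes with a coding transcript. Results for the long members are therefore given below with and without V118M replicate 2.

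**Figure D3:**
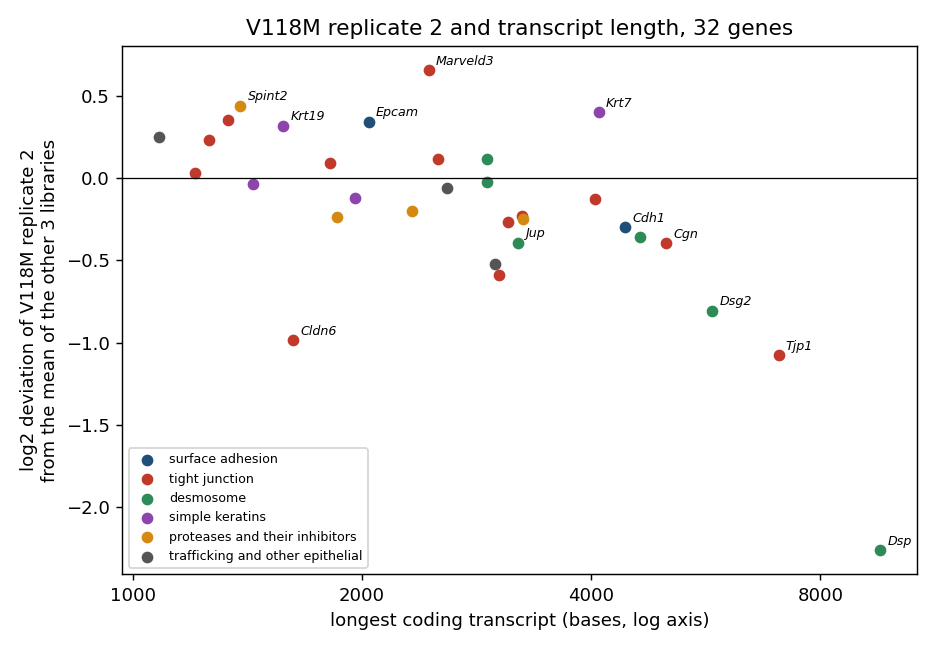
Deviation of V118M replicate 2 from the mean of the other 3 libraries (log2) against the length of the longest coding transcript (bases, log axis), 1 point per gene, coloured by role. Points fall toward the right, from Marveld3 and Spint2 above 0 to Dsg2, Tjp1 and Dsp at the bottom, with the short gene Cldn6 also far below 0.

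Most member promoters that could be matched hold a sequence feature that the list did not use. SNAI1, SNAI2, ZEB1 and ZEB2 repress epithelial genes by binding the E-box hexamer CAGGTG, which reads CACCTG on the opposite strand. RefSeq promoter windows (GRCm38.p6, 250 bases before to 50 after an annotated start) were matched for 23 of the 32 members, in 28 windows, and 9 members had no window: Cdh1, Krt19, Dsg2, Dsc2, Pkp2, Pkp3, St14, Marveld3 and Prss8. The hexamer, searched on both strands, was in 17 of the 23 (73.9%), against 22.6% of 27025 genes with a window. Of the member windows 75% held it, against 20.2% of all windows. In 9 members (39.1%) a window held 2 or more, against 3.32% of all genes. Member windows were richer in G and C, with a median of 60.8% in member windows against 52.7% in all windows. Among genes with a window in the members' range of 45.3% to 73% GC, 24.8% held the hexamer. The SOX core ATTGT, or ACAAT on the opposite strand, was in 1 of 23 members (4.35%, Tjp3), against 34.4% of all genes and 27.5% of those in the same GC range. The compressed SOX/OCT element named in the study's design text, CATTGTATGCAAAT, was in 0 member windows and 0 of all windows. For Crb3, Jup, Krt7, Marveld2, Spint1 and Spint2 no window held the start listed with the expression values, and for Cldn7 the window with the hexamer did not. These matches describe letters in a window, and binding was not measured.

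Shown here are 150 bases of 6 member promoters, from 130 bases before to 20 after the start, chosen because 5 of them hold several E-boxes close to the start and Krt8 holds a single one. E-box hexamers are in capitals and each sequence reads 5′ to 3′ along the gene.
Ap1m2 promoter, GRCm38.p6 chr9:21312314-21312463, minus strand: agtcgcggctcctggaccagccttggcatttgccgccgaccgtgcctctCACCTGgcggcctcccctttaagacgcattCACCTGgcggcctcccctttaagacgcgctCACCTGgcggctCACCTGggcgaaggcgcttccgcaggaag
Crb3 promoter, GRCm38.p6 chr17:57062071-57062220, plus strand: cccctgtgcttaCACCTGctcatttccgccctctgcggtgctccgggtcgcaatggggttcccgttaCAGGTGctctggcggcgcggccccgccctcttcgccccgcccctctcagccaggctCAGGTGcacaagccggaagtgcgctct
Spint2 promoter, GRCm38.p6 chr7:29281958-29282107, minus strand: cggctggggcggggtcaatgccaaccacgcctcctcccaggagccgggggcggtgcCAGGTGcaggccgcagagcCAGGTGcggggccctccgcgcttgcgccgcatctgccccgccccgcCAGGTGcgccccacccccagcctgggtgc
Cldn4 promoter, GRCm38.p6 chr5:134946915-134947064, minus strand: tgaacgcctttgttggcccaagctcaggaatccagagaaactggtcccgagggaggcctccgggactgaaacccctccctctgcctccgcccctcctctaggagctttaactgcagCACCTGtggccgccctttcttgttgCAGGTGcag
Rab25 promoter, GRCm38.p6 chr3:88548260-88548409, minus strand: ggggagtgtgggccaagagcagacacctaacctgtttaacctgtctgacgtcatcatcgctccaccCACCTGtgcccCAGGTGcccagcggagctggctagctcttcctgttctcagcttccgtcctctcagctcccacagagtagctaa
Krt8 promoter, GRCm38.p6 chr15:102004323-102004472, minus strand: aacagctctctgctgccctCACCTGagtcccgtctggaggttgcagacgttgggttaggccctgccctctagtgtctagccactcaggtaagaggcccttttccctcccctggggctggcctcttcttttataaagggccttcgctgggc

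**Figure D4:**
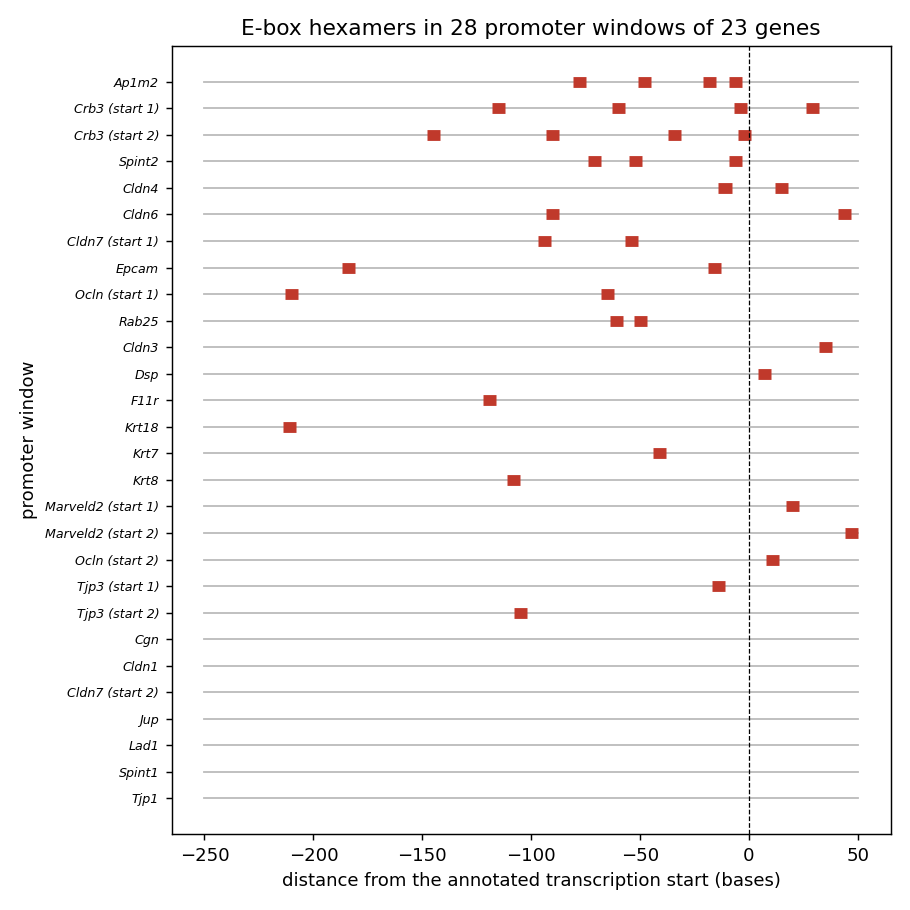
Positions of E-box hexamers (red marks) in 28 promoter windows of 23 member genes, by distance in bases from the annotated transcription start (dashed line). Ap1m2 and Crb3 windows hold 4 each, and 7 windows at the bottom hold none.

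Cdh1 and Epcam, the surface adhesion genes that mark the mesenchymal-to-epithelial transition, did not differ between the groups beyond their spread. Cdh1 encodes E-cadherin, the adhesion receptor of adherens junctions (chromosome 8, 106603351 to 106670246, plus strand). It was at 3425 and 2822 in V118M and at 3492 in both wild-type libraries. Both V118M values were below wild type, the lower of them in replicate 2, and the fitted difference on the log2 scale, -0.17, was about as large as its standard error (SE) of 0.16 (limma adjusted p = 0.951). Without V118M replicate 2 it was -0.03. Epcam encodes a homophilic adhesion molecule of epithelia and embryonic stem cells (chromosome 17, 87635979 to 87651129, plus strand). Its values of 742 and 1098 in V118M enclosed those of 884 and 990 in wild type, and its fold change was -0.05 on the log2 scale with an interval of -0.63 to 0.53.

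Claudins, the membrane proteins that form the tight junction seal, included a neighbouring pair, Cldn3 and Cldn4, with fitted differences near 0. These genes lie 39 kb apart on chromosome 5, and claudin-3 and claudin-4 are receptors for a clostridial enterotoxin. Cldn4, whose promoter is printed above, was at 2127 and 2333 in V118M and at 2160 and 2277 in wild type. Cldn3 was at 1113 and 1390 in V118M and at 1182 and 1269 in wild type. For both genes V118M replicate 2 was the highest library and V118M replicate 1 the lowest, so the wild-type values lay within the V118M range. Their log2 fold changes were 0.02 for Cldn3 and 0.01 for Cldn4, with intervals of -0.41 to 0.46 and -0.36 to 0.38. Both turned sign in 3 of the 12 alternatives.

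Cldn1 and Cldn7 code for further sealing claudins. Cldn1, needed for the skin barrier in mice, was at 848 and 769 in V118M and at 964 and 894 in wild type, a log2 fold change of -0.20 that was -0.13 without V118M replicate 2. Cldn7 was at 322 and 490 in V118M and at 436 and 404 in wild type, so the V118M libraries lay on either side of wild type. Cldn6, an embryonic claudin of pluripotent and early epithelial cells (chromosome 17, 23679249 to 23682446, plus strand), had the largest fold change of the tight junction genes. It was at 62 and 36 in V118M and at 70 and 87 in wild type. Both V118M libraries were below both wild-type libraries. The log2 fold change of -0.71 had an SE of 0.35 and an interval of -1.60 to 0.18 (limma adjusted p = 0.951). Leaving out V118M replicate 2 gave -0.33, and leaving out V118M replicate 1 gave -1.09.

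The occludin family, which strengthens contacts between cells and the corners where 3 cells meet, split in direction. Ocln, encoding occludin, was at 214 and 220 in V118M and at 226 and 288 in wild type. Marveld2, encoding tricellulin, was at 144 and 136 in V118M and at 171 and 179 in wild type. Marveld3, the third member of the family, was at 95 and 134 in V118M and at 71 and 90 in wild type. Thus Ocln and Marveld2 had both V118M values below wild type, and Marveld3 had both above. The log2 fold changes were -0.23, -0.32 and 0.49 with standard errors of 0.20, 0.18 and 0.28, and the adjusted p was 0.951 for each (limma). The fold change of Marveld2 stayed between -0.36 and -0.28 in every alternative and was -0.28 without V118M replicate 2, while that of Marveld3 ranged from 0.25 to 0.74. That of Ocln was -0.25 without V118M replicate 2, -0.41 without wild-type replicate 1 and -0.06 without wild-type replicate 2. None of these changed sign, which leaving out a library could not do because the groups did not overlap.

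Scaffold genes of the tight junction lie on the long side of the set, and their values turned on V118M replicate 2. Tjp1 encodes ZO-1, the scaffold that links claudins to actin (chromosome 7, 65296165 to 65527781, minus strand). It was at 4273 and 1864 in V118M and at 4129 and 3446 in wild type, so replicate 1 was the highest library of the 4 and replicate 2 the lowest. Its log2 fold change was -0.42 with all libraries and 0.18 without V118M replicate 2. Cgn, encoding the cytoplasmic plaque protein cingulin, was at 1178 and 900 in V118M and at 1150 and 1230 in wild type, and its fold change was -0.21 on the log2 scale, or -0.01 without V118M replicate 2. Tjp3, for the related scaffold ZO-3, was at 119 and 82 in V118M and at 141 and 114 in wild type. Here 1 V118M library lay within the wild-type range and the other below it, and the log2 fold change was -0.36, or -0.09 without V118M replicate 2.

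Crb3 and F11r encode transmembrane proteins that act with the polarity machinery at the tight junction, the Crumbs homologue CRB3 and the immunoglobulin-like molecule JAM-A. Crb3 was at 246 and 264 in V118M and at 265 and 266 in wild type. F11r was at 1258 and 1598 in V118M and at 1602 and 1585 in wild type. For both it was V118M replicate 1 that lay below wild type, while replicate 2 was within 2 score units below it for Crb3 and between the wild-type values for F11r. Their log2 fold changes of -0.06 and -0.17 were near their standard errors of 0.16 and 0.17 or below.

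Desmosome genes held the largest difference of the set, which came from a single library. Dsp encodes desmoplakin, which ties desmosomes to keratin filaments (chromosome 13, 38151294 to 38198577, plus strand), and at 9592 bases it has the longest transcript of the 32. It was at 61186 and 12776 in V118M and at 61186 in both wild-type libraries. Thus 3 libraries had the shared highest value of the scale, and only V118M replicate 2 was lower, at 0.209 of the mean of the other 3. The log2 fold change of -1.13 had an SE of 0.72 (limma adjusted p = 0.951) and was 0.00 without V118M replicate 2. Values at the top of the scale cannot be ranked among themselves, so a difference among the other 3 libraries would not be visible.

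The desmosomal cadherins showed the same library as the lowest. Dsg2, for desmoglein-2 of simple epithelia (chromosome 18, 20558074 to 20604521, plus strand), was at 1439 and 755 in V118M and at 1393 and 1148 in wild type. Dsc2, for its partner desmocollin-2, was at 1028 and 754 in V118M and at 986 and 888 in wild type. In both genes V118M replicate 1 was the highest library. Their log2 fold changes of -0.28 and -0.09 became 0.19 and 0.14 without V118M replicate 2. Jup encodes plakoglobin, the catenin shared by desmosomes and adherens junctions. It was at 5214 and 4192 in V118M and at 5664 in both wild-type libraries, with a log2 fold change of -0.28 that was -0.12 without V118M replicate 2.

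Plakophilins, the armadillo-repeat proteins of the desmosomal plaque, did not follow that pattern. Pkp3 was at 1110 and 1138 in V118M and at 1018 and 1031 in wild type. Both V118M libraries were higher, by 0.13 on the log2 scale with an SE of 0.14 (limma adjusted p = 0.951), and the value lay between 0.12 and 0.15 in every alternative. Pkp2 was at 134 and 126 in V118M and at 110 and 142 in wild type, where the V118M values lay within the wild-type range.

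Simple keratins, the intermediate filament proteins of single-layered epithelia, were at like levels in both groups. Krt8 and Krt18 encode partners that assemble only with each other's class and lie near each other on chromosome 15. Krt8 was at 6332 and 5972 in V118M and at 6702 and 6490 in wild type. Krt18 was at 639 and 684 in V118M and at 660 and 814 in wild type. Both V118M values of Krt8 were thus below wild type, with a log2 fold change of -0.10 and a standard error of 0.15, and Krt18 overlapped. Krt19, the smallest type I keratin and the partner used by many ductal epithelia, was at 6692 and 8352 in V118M and at 6140 and 7312 in wild type. Krt7, a type II keratin of ducts and mesothelium, was at 2569 and 3397 in V118M and at 2515 and 2644 in wild type. V118M replicate 2 was the highest library for both, and without it their log2 fold changes of 0.16 and 0.20 were -0.002 and -0.005. Whether reads of near-identical keratin copies were split between genes was not analysed here.

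Keratins on a list of keratinocyte markers had higher values in both V118M libraries. Of the further keratins looked at, Krt20 and Krt80 were lower in V118M with no overlap and Krt23 overlapped. Krt80 was at 2437 and 1544 in V118M and at 2644 and 2453 in wild type. Among 7 keratinocyte markers 6 were higher in V118M with no overlap, against 13.2% of all genes, and none of the 6 passed the test (limma adjusted p of 0.332 to 0.951). The 7 markers had sums of 19959 and 21536 in V118M and 13613 and 12383 in wild type. Krt5, the basal type II keratin, was at 664 and 731 in V118M and at 246 and 199 in wild type (limma adjusted p = 0.332), while the basal regulator Trp63 was at 112 and 92 in V118M and at 105 and 107 in wild type. The difference between the 2 keratin groups was not tested. Mesothelial cells also express simple keratins, and the 5 mesothelial markers summed to 5690 and 5533 in V118M and 6003 and 5968 in wild type. Mesothelin (Msln) made up most of that sum, at 5328 in both V118M libraries and 5670 in both wild-type libraries, whereas Wt1 was at 25 and 12 in V118M and at 28 and 12 in wild type. The part of these cell types in the keratin values was not tested.

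Membrane proteases and their inhibitors were lower in V118M in 3 of 4 cases, each with no overlap between the groups and none passing the test. Of all genes 14.8% were lower in V118M with no overlap. St14 encodes matriptase, which activates the protease prostasin encoded by Prss8, and the Kunitz inhibitors HAI-1 and HAI-2, encoded by Spint1 and Spint2, restrain both. St14 was at 1766 and 1525 in V118M and at 1842 and 1820 in wild type. Prss8 was at 204 and 186 in V118M and at 241 and 215 in wild type. Spint1 was at 495 and 472 in V118M and at 540 and 601 in wild type. For these 3 genes both V118M libraries were below both wild-type libraries, replicate 2 more so, with log2 fold changes of -0.16, -0.22 and -0.24 and standard errors of 0.15, 0.18 and 0.15. Their sign was the same in all 12 alternatives, but leaving out a library could not turn it, because the groups did not overlap. Without V118M replicate 2 the fold changes were -0.05, -0.16 and -0.20, and with a length trend removed they were -0.15, -0.33 and -0.29. Spint2, whose promoter holds 3 E-boxes, was at 1884 and 2674 in V118M and at 2027 and 2009 in wild type, with replicate 1 below and replicate 2 above wild type.

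The remaining members serve vesicle traffic and the basement membrane. Rab25, a small GTPase of epithelial recycling endosomes (chromosome 3, 88542029 to 88548300, minus strand), was at 850 and 895 in V118M and at 666 and 752 in wild type. Both V118M libraries were higher. Its log2 fold change of 0.30 had a standard error of 0.15 and an interval of -0.08 to 0.68 (limma adjusted p = 0.951), and it was 0.26 when V118M replicate 2 was left out and 0.12 with a length trend removed from each library. Ap1m2, the epithelial subunit of a clathrin adaptor that sorts proteins to the basolateral membrane, was at 317 and 322 in V118M and at 299 and 399 in wild type. Lad1, for the anchoring filament protein ladinin, was at 1022 and 679 in V118M and at 964 and 946 in wild type. The Ap1m2 values of V118M lay within the wild-type range, and those of Lad1 lay on either side of it.

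**Figure D5:**
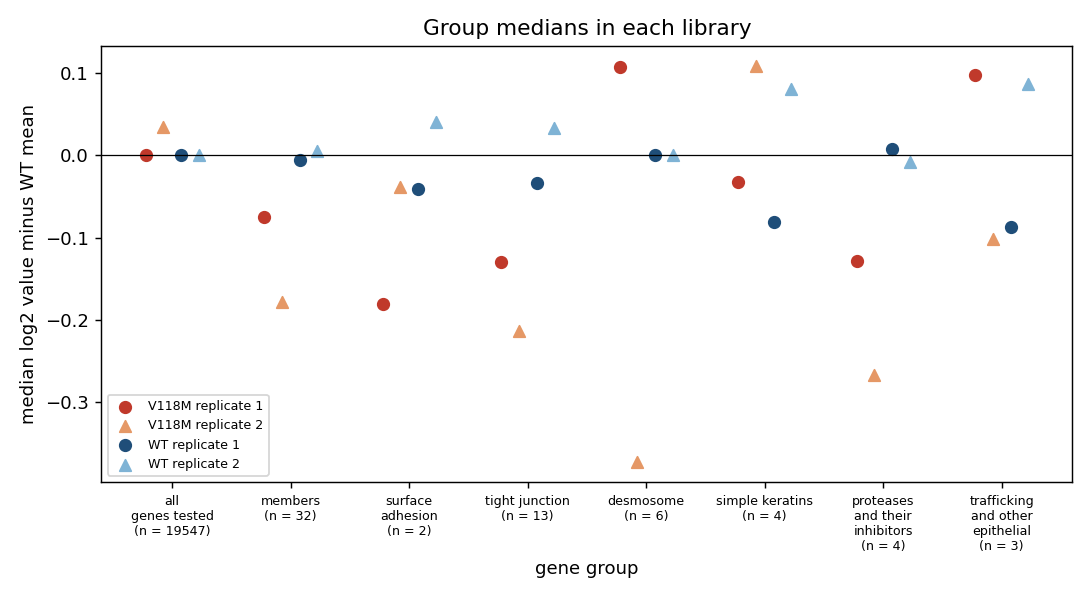
Median of log2 value minus the wild-type mean over the genes of each group, 1 point per library (V118M left of wild type within each group). Desmosome genes show the widest gap between the V118M libraries, 0.11 in replicate 1 and -0.37 in replicate 2, while all genes tested stay between 0.00 and 0.03.

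By role, the members' medians relative to the wild-type mean separated the V118M libraries. Tight junction genes were at -0.13 and -0.21 in V118M replicates 1 and 2, and protease genes at -0.13 and -0.27. Both V118M libraries were below 0 in these groups. Desmosome genes were at 0.11 and -0.37 and simple keratins at -0.03 and 0.11, with the V118M libraries on either side of 0. Over all 32 members the medians were -0.08 and -0.18 in V118M and -0.01 and 0.01 in wild type.

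A wider list of 75 epithelial genes also had a median below 0, but its share of genes without overlap was near that of all genes. Of these, 67 were in the table and 65 were tested, with 19 higher, 45 lower and 1 equal in V118M and a median log2 fold change of -0.10. None passed over all genes, and the groups did not overlap in 7 with V118M above and 12 with V118M below. That is 29.2% in either direction and 18.5% below, against 28.0% and 14.8% of all genes. The 3 lowest were Dsg3, a desmoglein of stratified epithelium, Tmprss2, a membrane serine protease, and Krt20, a keratin of gut epithelium. Dsg3 was at 304 and 161 in V118M and at 370 and 314 in wild type, and Tmprss2 at 36 and 44 in V118M and at 52 and 64 in wild type. Krt20 was at 376 and 360 in V118M and at 526 and 502 in wild type, a log2 fold change of -0.48 with an SE of 0.15 (limma adjusted p = 0.951, unadjusted p = 0.0207). It was the single gene of the 65 with an unadjusted p under 0.05, against 4.01% of all genes. The 3 highest were Cldn5, a claudin of endothelium, at 57 and 151 in V118M and 58 and 78 in wild type, Krt23, at 12 and 6 in V118M and 6 in both wild-type libraries, and the stratifin gene Sfn, at 2607 and 3402 in V118M and 2318 and 2427 in wild type.

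Of 9 regulators of the epithelial program on this list, 8 overlapped between the groups and Grhl1 did not, while 28.0% of all genes tested did not overlap. Grhl2, a transcription factor that activates Cdh1 and claudin genes, was at 148 and 93 in V118M and at 146 and 112 in wild type. Esrp1, which directs epithelial splicing, was at 777 and 661 in V118M and at 736 and 777 in wild type, and Esrp2 at 756 and 534 in V118M and 754 and 660 in wild type. Grhl1, a relative of Grhl2, was at 518 and 516 in V118M and at 461 and 432 in wild type, both V118M values higher, with a log2 fold change of 0.21 and an SE of 0.145. Grhl3 was at 294 and 235 in V118M and at 291 and 284 in wild type. Both Grhl1 and Grhl3 were added to the genes named after their values were seen. For Ovol1, Ovol2, Elf3 and Ehf, other epithelial transcription factors, the log2 fold changes were -0.20, -0.07, -0.07 and 0.23. The catenins Ctnna1, Ctnnb1 and Ctnnd1, which link cadherins to actin, were at -0.30, -0.03 and -0.24, and the plakins Ppl and Evpl at -0.29 and -0.24. The placental cadherin Cdh3 was at -0.28. The adjusted p was above 0.9 for each of these genes (limma).

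Repressors of Cdh1 were expressed alongside it in every library. Zeb1 was at 664 and 533 in V118M and at 666 and 584 in wild type, and Zeb2 at 708 and 474 in V118M and 726 and 609 in wild type. Snai1 was at 534 and 506 in V118M and at 481 and 450 in wild type, Snai2 at 226 and 277 in V118M and 288 and 252 in wild type, and Twist1 at 634 and 791 in V118M and 586 and 748 in wild type. Of these only Snai1 had groups that did not overlap, with V118M above, as 13.2% of all genes did. Its log2 fold change of 0.16 was about as large as its SE of 0.147 (limma adjusted p = 0.951), and it was 0.04 with a length trend removed. Cdh2, the mesenchymal N-cadherin, was at 394 and 340 in V118M and at 289 and 276 in wild type, a log2 fold change of 0.37 with an SE of 0.17 (limma adjusted p = 0.951). Both V118M libraries were higher. Vim was at 19024 and 29480 in both groups, and Fn1 at 29480 and 14852 in V118M and 29480 and 22740 in wild type.

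Markers of other cell types that carry epithelial junctions or could be present were summed in the same way. Trophoblast markers summed to 559 and 615 in V118M and 599 and 713 in wild type, with Cdx2 at 0 in every library. Of the 6 liver and gut endoderm markers in the table, Afp and Foxa2 were at 0 in every library and the sums were 12 and 7 in V118M and 10 and 18 in wild type. Pluripotent markers summed to 306 and 293 in V118M and 176 and 232 in wild type. Endothelial markers, with Emcn at 0, summed to 1100 and 976 in V118M and 1174 and 1227 in wild type, and leukocyte markers to 272 and 305 in V118M and 661 and 417 in wild type. Pluripotent sums were higher and endothelial and leukocyte sums lower in both V118M libraries than in either wild-type library. The largest part of the pluripotent sum was Tdgf1, at 188 and 149 in V118M and at 83 and 126 in wild type. Of the 6 pluripotent markers tested 5 had higher means in V118M and 1, Fgf4, a lower one. Fgf4 was at 66 and 72 in V118M and at 72 and 70 in wild type, and Nanog at 6 in both V118M libraries and at 1 and 8 in wild type. Most of the endothelial sum was Tek, at 1054 and 933 in V118M and at 1103 and 1172 in wild type. The endothelial gene Pecam1 went the other way, at 18 and 24 in V118M and at 17 and 14 in wild type. Cdh5 was at 9 and 6 in V118M and at 26 and 16 in wild type, and Kdr at 14 and 8 and at 22 and 15. Groups did not overlap for 5 of 5 endothelial markers tested, 4 with V118M below and 1 above. The same held for 2 of 6 pluripotent and 1 of 8 leukocyte markers tested, against 28.0% of all genes. No marker of these 3 lists passed the test (limma adjusted p above 0.9 for each). The part of these cell types in the values of the junction genes was not tested.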

How the data were processed

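Libraries were prepared with a TruSeq Nano kit from TRIzol-isolated total RNA, per the labels' protocols. Tools named in the submitters' processing notes are Bowtie2, RSEM, DESeq2 and FastQC, with the mm10 genome, and no version or role is stated. The deposited values are whole-number scores per gene. The normalization and the handling of strand are not given in the sources read, but 76.7% of ranks held the same value in all 4 libraries, so they are not raw counts.

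Values were analysed as log2(value + 1) for the 19547 genes that reached 1 in 2 or more libraries. A limma model (version 3.58.1, R 4.3.3) had group as its single term and used the trend and robust settings. Two-sided p-values were adjusted by the Benjamini-Hochberg method over all genes tested, at a threshold of 0.05. Fold changes (log2, V118M over wild type) understate changes of low genes. The fit was tested on simulated data. With 2 against 2 libraries, an exact permutation test of 1 gene cannot reach the threshold and was not used.

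Genes were matched to GENCODE M21 (GRCm38, also called mm10) through the listed transcripts. Of these 22304 were found, and 95.9% had a start within 1 base of the annotation. Positions count from 1, and transcript lengths are those of the longest coding transcript. Promoter windows came from RefSeq (GRCm38.p6), and those on chromosome 18 were left out.

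The members, the wider list and the marker lists were chosen with earlier results of these data known. All 32 members are named. Of the wider list, 7 regulators, catenins, plakins, Cdh3, and the 3 highest and 3 lowest fold changes are named, and so are the repressors and mesenchymal genes. Grhl1, Grhl3 and Krt80 were named after their values were seen. Some listed genes are not reported here. Alternatives were pseudocounts of 0.1 and 5, no filter, a filter at 10, a block for the replicate number, leaving out each library, array quality weights, removal of a length trend, and no trend or robust option.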

Additional observations from a re-analysis of the deposited data

How the results depend on the processing

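Sequencing depth is unknown, and 2 libraries a group limit every test. A fit that leaves out 1 library keeps 1 sample in that group, which is assumed to vary like the other group. Across all 12 alternatives 0 of the 32 members passed, 16 kept their sign throughout, and members with lower means in V118M stayed within 1.5 times the 23 of the full fit. Changing the filter, the block, the weights or the trend and robust options could not alter the fold change of a member. Each group has 2 libraries, and the weights were equal within each group (0.429 in V118M and 2.33 in wild type). For the sign of a member, only the pseudocounts, leaving out a library and the length trend were therefore a test. Leaving out a library cannot turn the sign of a gene whose groups do not overlap. No filter on low values gave 1441 genes and 2 members at an unadjusted p under 0.05. Same-numbered libraries did not deviate together across genes (correlation 0.016), but V118M replicate 2 stood apart, so whether the numbers pair the samples is not known. The replicate block gave 1204 such genes and 3 called over all genes (0 in the full fit), none of them a member. Removing a length trend gave log2 fold changes of -0.14 for Cldn3, -0.10 for Cldn4 and -0.081 for the median of the simple keratins. Leaving out each library in turn gave 5096 and 2283 genes at an unadjusted p under 0.05 without V118M replicate 1 and 2, and 221 and 269 without wild-type replicate 1 and 2. Of the members 9 and 5 were among them without V118M replicate 1 and 2, and 0 without either wild-type library. In those fits the median ranged from -0.18 to -0.075 over the members, -0.18 to -0.038 over surface adhesion genes, -0.032 to 0.12 over simple keratins (below 0 when V118M replicate 2 or wild-type replicate 1 was left out), -0.21 to -0.13 over tight junction genes, -0.37 to 0.11 over desmosome genes, -0.27 to -0.13 over proteases and inhibitors, -0.18 to 0.10 over trafficking genes and -0.20 to 0.01 over the wider list, the desmosome, trafficking and wider list medians being above 0 without V118M replicate 2, and the trafficking median also without wild-type replicate 2. The members whose sign turned ranged from -0.33 to 0.23 (Epcam), -0.14 to 0.18 (Cldn3), -0.06 to 0.073 (Cldn4), -0.38 to 0.22 (Cldn7), -1.02 to 0.18 (Tjp1), -0.34 to 0.004 (F11r), -0.74 to 0.19 (Dsg2), -0.31 to 0.14 (Dsc2), -0.13 to 0.24 (Pkp2), -0.005 to 0.40 (Krt7), -0.30 to 0.002 (Krt18), -0.002 to 0.32 (Krt19), -0.10 to 0.41 (Spint2), -0.32 to 0.095 (Ap1m2) and -0.49 to 0.098 (Lad1). Of those that kept it, Ocln ranged from -0.41 to -0.059, Tjp3 from -0.62 to -0.091 and St14 from -0.26 to -0.052. The cause was not tested.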
